A study of Mus musculus with 22 samples.

Results

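The response to zinc in drinking water was examined in 6 RNA-seq libraries of small intestine from FVB/N mice whose glucocorticoid receptor is wild type (GRWT). Of these, 3 came from mice on normal water and 3 from mice that drank 25 mM zinc sulfate over 7 days. The series holds 22 libraries, in which GRWT mice and GRDim mice, whose mutant receptor forms dimers poorly, each drank either water. Its libraries differ widely in their smooth muscle RNA, and the 6 were taken as the GRWT libraries with over 100 CPM (read counts scaled to a common library size) of Myh11, the heavy chain of smooth muscle myosin. Myh11 ranged from 298 to 463 CPM in them and from 3.22 to 20.5 CPM in the other 4 GRWT libraries, so this gene chose the libraries and its level is not a finding. The study used female mice of 8 to 14 weeks from heterozygous crosses, and GRDim mice carry the mutation in every cell.

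Both groups hold water or zinc replicates 1, 4 and 5 of the labels. Replicate 1 bears the label ileum and replicates 4 and 5 the label IEC, which stands for epithelium scraped off the inner bowel, so the label is balanced between water and zinc. The labels do not say whether each library came from a separate animal. The study's text gives numbers per group that equal the numbers of libraries, without saying that each library is 1 mouse. The p-values thus measure a spread between libraries, which may be technical. In the main fit this spread was pooled over these 6 libraries and 6 GRDim libraries chosen by the same Myh11 level. The tissue label and the muscle RNA go against each other: 4 of the 6 muscle-rich libraries carry the label of scraped epithelium, while the 4 muscle-poor GRWT libraries are labelled ileum. The summed level of 10 epithelial genes was 23090.3 to 24331 CPM on water and 22277 to 25846 CPM on zinc. That of 10 smooth muscle genes was 2699, 2701 and 2944 CPM on water and 2074, 2572 and 1984 CPM on zinc (replicates 1, 4 and 5), and the highest zinc library lay below the lowest water library. Of 10 pancreatic enzyme genes, 5 were at 0 in all 6 libraries. Zinc replicate 1 stood apart in genes of B cells, such as Ms4a1, the surface antigen CD20, which was at 61.6 CPM there and between 0.371 and 1.1 CPM in the other 5 libraries. Library totals ran from 13415583 to 15620744 counts, and 3 counts, taken as the floor of detection, were worth 0.192 to 0.224 CPM; floors and intervals cover counting error only.

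Cells keep free zinc low by buffering it, exporting it and adjusting how much they take up. Metallothioneins are small cysteine-rich proteins that bind zinc and copper. The transcription factor Mtf1 senses free zinc and binds metal response elements in the promoters of metallothionein and exporter genes. Transporters of the Slc30 family move zinc out of the cytosol, into vesicles or out of the cell, and those of the Slc39 family bring it in. In the gut, Slc39a4 takes up dietary zinc at the brush border, and its loss causes zinc deficiency.

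Zinc raised 3 metallothionein genes and the exporter Slc30a2 and lowered the importer Slc39a4, and few other genes were called. A gene was called when its adjusted p-value was under 0.05 and its log2 fold change beyond 0.8 in either direction, the cut-offs of the study. Of 15947 genes tested, 17 were called higher on zinc (0.107%) and 9 lower (0.0564%), together 26 genes (0.163%), by edgeR's quasi-likelihood test fitted over these 6 libraries and 6 muscle-rich GRDim libraries. At an adjusted p-value under 0.05 without the fold threshold there were 37 higher (0.232%) and 24 lower (0.15%). At an unadjusted p under 0.05 there were 966 higher (6.06%) and 870 lower (5.46%), so few calls do not show a small response. Single libraries moved these counts: without zinc replicate 5 there were 28 higher and 4 lower, without zinc replicate 1 there were 11 and 5, without water replicate 1 there were 20 and 17, without water replicate 4 there were 10 and 4, and without water replicate 5 there were 8 and 4. The median log2 fold change over all genes tested was 0.00752.

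**Figure D1:**
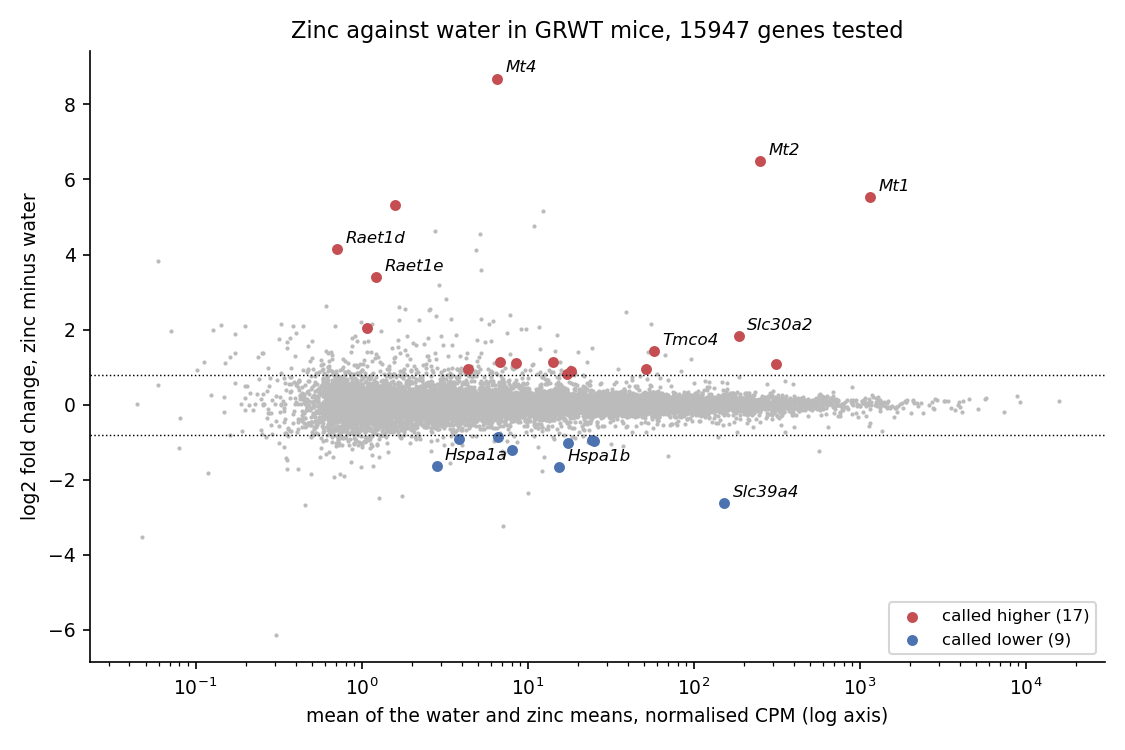
Log2 fold change (zinc minus water) of each of the 15947 genes tested against its mean level in normalised CPM on a log axis. Red points are the 17 genes called higher, blue points the 9 called lower, and dotted lines mark 0.8 in either direction. Mt1, Mt2 and Mt4 lie above 5 on the log2 scale and Slc39a4 lies at -2.62, apart from most other genes.

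The upstream sequence of the zinc genes was read next, since Mtf1 binds metal response elements. In the 250 bases before each start in RefSeq (build GRCm38.p6), its core TGCACNC or TGCGCNC was searched on both strands. The genes shown here are the 3 metallothioneins called higher and Tmco4 and Tfrc, called with them, which hold 2 cores each before the start shown. Capitals mark the core, in the reading direction of the gene.
Mt1, chr8:94178839-94179088, plus strand: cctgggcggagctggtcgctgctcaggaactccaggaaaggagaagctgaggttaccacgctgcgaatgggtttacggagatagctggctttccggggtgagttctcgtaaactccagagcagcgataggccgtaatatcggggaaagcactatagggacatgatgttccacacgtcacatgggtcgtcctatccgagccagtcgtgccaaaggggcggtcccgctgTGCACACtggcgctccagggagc
Mt2, chr8:94172368-94172617, plus strand: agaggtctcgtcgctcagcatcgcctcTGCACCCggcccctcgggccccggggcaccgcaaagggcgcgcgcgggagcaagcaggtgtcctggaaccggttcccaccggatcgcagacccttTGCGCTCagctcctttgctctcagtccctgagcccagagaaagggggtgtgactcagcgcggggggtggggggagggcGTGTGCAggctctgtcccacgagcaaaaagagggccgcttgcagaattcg
Mt4, chr8:94136954-94137203, plus strand: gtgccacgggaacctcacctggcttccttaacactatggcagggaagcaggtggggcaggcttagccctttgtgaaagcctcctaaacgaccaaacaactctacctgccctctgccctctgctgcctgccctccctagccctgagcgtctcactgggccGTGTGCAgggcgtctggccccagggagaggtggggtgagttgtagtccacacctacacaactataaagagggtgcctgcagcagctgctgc
Tmco4, chr4:138972655-138972904, plus strand: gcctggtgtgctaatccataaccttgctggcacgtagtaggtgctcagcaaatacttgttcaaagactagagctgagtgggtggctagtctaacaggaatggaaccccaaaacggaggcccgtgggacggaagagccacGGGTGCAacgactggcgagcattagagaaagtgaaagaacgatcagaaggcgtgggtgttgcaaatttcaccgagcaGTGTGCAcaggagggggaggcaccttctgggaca
Tfrc, chr16:32608646-32608895, plus strand: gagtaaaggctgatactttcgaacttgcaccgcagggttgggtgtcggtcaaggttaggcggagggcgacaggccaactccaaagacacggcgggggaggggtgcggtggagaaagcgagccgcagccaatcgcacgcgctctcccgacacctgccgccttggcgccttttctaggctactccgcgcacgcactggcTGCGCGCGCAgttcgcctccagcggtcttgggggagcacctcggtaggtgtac
Mt2 held 3 cores, which begin 223, 128 and 50 bases before the start. Tmco4 held 2, at 111 and 34 bases, and Tfrc held 2 that overlap, at 53 and 50 bases. The other start listed for each of these 2 genes held 0. Mt1 held 1 core, at 23 bases, and Mt4 held 1, at 91 bases. Only these 250 bases were searched, so cores after the start, or farther from it, are not in these counts. Mt1 also held 1 match to the palindrome of a glucocorticoid response element (GNACA and TGTNC with 3 bases of any kind between), 94 to 82 bases before its start, which 0.368% of the tested genes in the table hold. Of the 14 matched genes called higher, 1, Tmco4, held the interferon-stimulated element (GAAA and GAAA with 2 bases between), as did 3.44% of the tested genes in the table. Of the 17 genes called higher, 14 were in the RefSeq table, and 10 of these held a metal response core before any of their starts, 4 of them 2 or more before the same start. Slc30a2 held 2, in a RefSeq window that lies inside its gene model in the annotation used for coordinates, and it is not shown. Of the 9 genes called lower, 6 were in the table and 0 held a core. The core is common: it is in 21.4% of all 32851 promoters in the table and, by gene, in 33.2% of the 11407 genes tested that are in the table, 9.52% of which hold 2 or more and 2.38% hold 3 or more. These are matches of letters and not measured binding sites.

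Mt1 and Mt2 are the metallothioneins of most tissues, and Mt4 is known from squamous epithelium. Mt1 (ENSMUSG00000031765, chromosome 8, 94179082 to 94180327, plus strand) was at 75.6, 41.5 and 29.3 CPM in water replicates 1, 4 and 5 and at 2481, 2489 and 1814 CPM in the zinc libraries. Mt2 (ENSMUSG00000031762, chromosome 8, 94172664 to 94173568, plus strand) was at 9.75, 4.39 and 2.23 CPM on water and at 575, 547 and 359 CPM on zinc. The lowest zinc library of either gene was far above the highest water library. Mt1 rose 46.3-fold in its mean level (log2 fold change 5.53 ± 0.37 SE, n = 3 per group, edgeR adjusted p = 0.00128), and Mt2 rose 90.5-fold (6.49 ± 0.51, adjusted p = 0.00153). Mt4 (ENSMUSG00000031757, chromosome 8, 94137197 to 94139031, plus strand) had 1 count over the 3 water libraries and 582 over the 3 zinc libraries, at 11.6, 22.4 and 5.4 CPM. Its ratio was 579 with a 95% counting interval of 103 to 22903, and its fitted log2 change of 8.69 (adjusted p = 0.0109) depends on the prior count. Mt3, the metallothionein of brain, was at 1.13, 0.904 and 0.593 CPM on water and 1.27, 0.905 and 0.75 CPM on zinc, and these overlap (log2 fold change 0.15 ± 0.40, adjusted p = 0.916). Gm45774, a transcript antisense to Mt2, was called higher too, with 133 counts on zinc and 3 on water; reads of the overlapping pair may not be told apart, because the strand setting of the counting is not stated. Mt1 was called in all 9 alternative fits and all 6 fits without 1 library. Mt2 was lost in the fit of the 6 libraries without the GRDim ones (adjusted p = 0.0555) and with the tissue label added to that fit (adjusted p = 0.0516), with log2 changes of 6.49 and 6.56. Mt4 was lost in the same fits (adjusted p = 0.144 and 0.221) and without water replicate 1, 4 or 5 (adjusted p = 0.0539, 0.0921 and 0.1). Gm45774 was lost without water replicate 5 (4.82, adjusted p = 0.0528), in the 6 libraries alone (adjusted p = 0.217) and with the summed smooth muscle level of each library as covariate (adjusted p = 0.338). That level was lower in each zinc library than in each water library of the 6. The fit with this covariate, here and below, therefore tells muscle and zinc apart poorly.

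**Figure D2:**
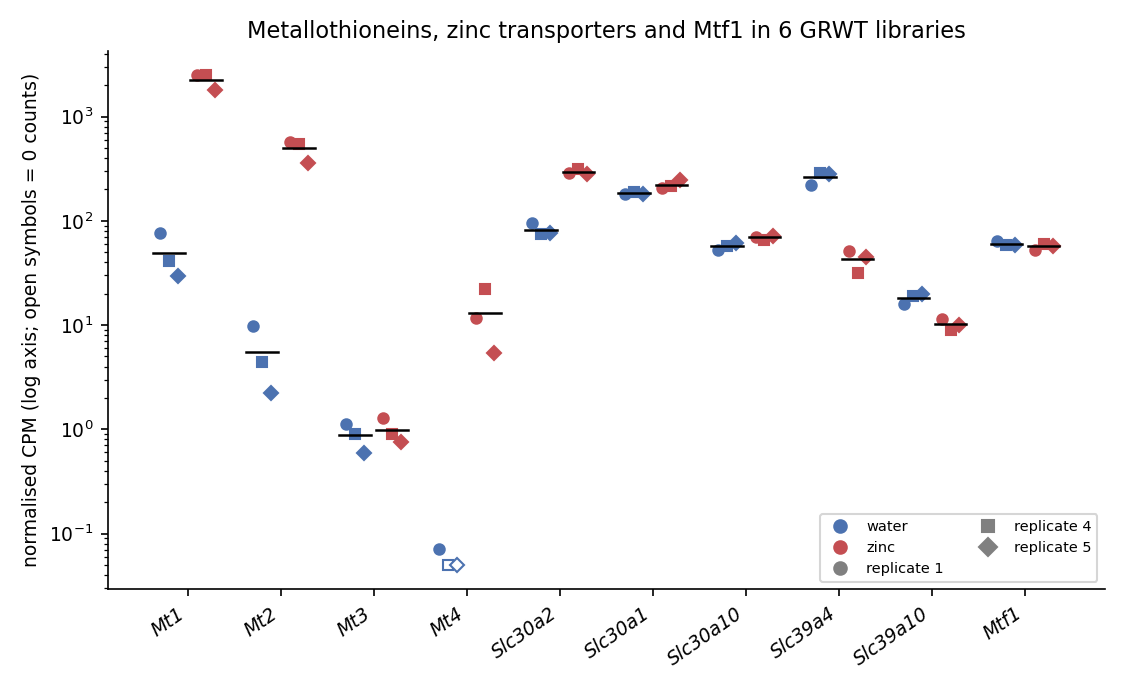
Normalised CPM on a log axis of metallothioneins, zinc transporters and Mtf1 in each of the 6 libraries, water in blue and zinc in red, with circles, squares and diamonds for replicates 1, 4 and 5 and a line at the group mean, left out for Mt4 on water. Open symbols are libraries with 0 counts, drawn at 0.05. The groups overlap for Mt3 and Mtf1 and are separate for the other 8 genes; levels are not corrected for gene length and are to be compared within a gene.

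Among 8 exporters tested, 1 rose, against 0.107% of all genes called higher, and 3 lay higher without overlap, against 7.81%. Slc30a2 (ENSMUSG00000028836, chromosome 4, 134343181 to 134354484, plus strand), which loads zinc into vesicles, was at 95.4, 75.3 and 75.8 CPM on water and 285, 312 and 278 CPM on zinc, with no overlap. It rose 3.55-fold (1.83 ± 0.16, adjusted p = 0.0013) and was called in all 9 alternatives and all 6 fits without 1 library. Slc30a1, the exporter of the outer cell membrane and a target of Mtf1, was at 180.5, 189 and 179.8 CPM on water and 204, 215 and 245 CPM on zinc. Its groups did not overlap, but its log2 change of 0.27 ± 0.13 did not pass (adjusted p = 0.469). Slc30a10, known as a manganese exporter, had a log2 change of 0.28 ± 0.25 (adjusted p = 0.708), also without overlap. The 5 other exporters overlapped between groups, with log2 changes of -0.06 for Slc30a7, -0.03 for Slc30a5, 0.00 for Slc30a9, 0.02 for Slc30a4 and 0.07 for Slc30a6. Mtf1 was at 63.6, 58.7 and 58.3 CPM on water and 52.8, 60.5 and 56.9 CPM on zinc, with a log2 change of -0.09 ± 0.07 (adjusted p = 0.649). That of the related Mtf2 was 0.06 ± 0.08 (adjusted p = 0.785).

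Among 12 importers tested, 1 fell, against 0.0564% of all genes called lower. Slc39a4 (ENSMUSG00000063354, chromosome 15, 76612383 to 76617384, minus strand) was at 222, 285 and 279 CPM on water and 51.7, 31.8 and 44.7 CPM on zinc. Each zinc library was below each water library. The mean on zinc was 0.163 of that on water (log2 fold change -2.62 ± 0.17, adjusted p = 0.00106), the smallest unadjusted p of the comparison. It was lost with the tissue label as covariate (-2.62, adjusted p = 0.0649) and with the replicate number as block (-2.63, adjusted p = 0.145), both fits of the 6 libraries alone. Slc39a10, an importer of the outer cell membrane, was at 16, 19.2 and 19.8 CPM on water and 11.4, 9.05 and 10.1 CPM on zinc, again without overlap. Its log2 change of -0.85 ± 0.17 just missed the threshold (adjusted p = 0.0529). Slc39a5, the importer of the basolateral side, went the other way with 0.23 ± 0.08 and overlapping groups (adjusted p = 0.292). The other importers did not pass, with 0.13 for Slc39a11, -0.10 for Slc39a9, -0.22 for Slc39a7, -0.21 for Slc39a8, 0.17 for Slc39a6, 0.06 for Slc39a14, 0.11 for Slc39a13, -0.04 for Slc39a1 and -0.01 for Slc39a3. Of these, Slc39a7 alone did not overlap between groups, against 7.04% of all genes that lay lower on zinc without overlap.

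Iron and copper handling shared 1 call among 23 genes tested, against 0.107% of all genes called higher. Tfrc (ENSMUSG00000022797, chromosome 16, 32608920 to 32632794, plus strand), the transferrin receptor, was at 201, 199 and 200.2 CPM on water and 450.1, 492 and 323 CPM on zinc. The water libraries were nearly equal and each zinc library was well above them. Tfrc rose 2.11-fold (1.08 ± 0.13, adjusted p = 0.00285), and it was lost with the tissue label (1.08, adjusted p = 0.0985) and with smooth muscle as covariate (1.17, adjusted p = 0.0536). Of 23 genes of iron and copper handling, 6 had an unadjusted p under 0.05 in the higher direction and 2 in the lower, against 6.06% and 5.46% of all genes. The ferritin light chain Ftl1 (0.28 ± 0.06, adjusted p = 0.0524), the copper-zinc superoxide dismutase Sod1 (0.26 ± 0.06, adjusted p = 0.0692) and the iron importer Slc11a2 (0.48 ± 0.11, adjusted p = 0.109) did not pass, although each zinc library was above each water library. The list's median was 0.00644.

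Genes of glutathione synthesis and conjugation, many of them targets of the oxidative stress factor Nrf2, had a positive log2 change in 19 of 22 cases, against 52% of all genes. None of the 22 was called, 2 passed on the adjusted p alone, against 0.232% of all genes higher, and 12 had an unadjusted p under 0.05, all 12 in the higher direction, against 6.06%. In 9 of the 22 each zinc library was above each water library, against 7.81% of all genes, and the median log2 change was 0.31. Gstm1, a glutathione S-transferase, was at 32.8, 33.2 and 29.4 CPM on water and 57.6, 48 and 54.5 CPM on zinc (0.75 ± 0.09, adjusted p = 0.0013). Gclm, the modifier subunit of the enzyme that limits glutathione synthesis, was at 146, 132 and 143 CPM on water and 263, 235 and 199 CPM on zinc (0.73 ± 0.10, adjusted p = 0.00956). Both stayed under the fold threshold, which Gstm1 crossed without zinc replicate 4 (0.82, adjusted p = 0.00266) and Gclm without zinc replicate 5 (0.83, adjusted p = 0.00134). Gclm lost its adjusted p without water replicate 4 (0.0647) or 5 (0.0601), with log2 changes of 0.68 and 0.74. With smooth muscle as covariate the adjusted p was 0.0699 for Gstm1 and 0.374 for Gclm. In the fit of all 22 libraries it was 1 and 0.714. That fit includes the muscle-poor zinc replicate 3, where Gstm1 was at 1453 CPM. In the other muscle-poor GRWT libraries Gstm1 was at 36 CPM on zinc and at 18.2 and 13 CPM on water. The part of that library in the loss was not tested. The catalytic subunit Gclc (0.30 ± 0.06, adjusted p = 0.0609) and glutathione reductase Gsr (0.30 ± 0.07, adjusted p = 0.0774) did not overlap between groups and did not pass. Larger but uneven differences, named after their values were seen, included those of the transferase Gsta1, at 0.353, 0.388 and 0.519 CPM on water and 4.3, 0.388 and 0.975 CPM on zinc (2.14 ± 0.77, adjusted p = 0.323), the largest of the list, the quinone reductase Nqo1, at 33.9, 34.7 and 35.9 CPM on water and 81.9, 55.1 and 41.5 CPM on zinc (0.77 ± 0.21, adjusted p = 0.205), and the transferase Gstm3, at 10.2, 16.9 and 11.1 CPM on water and 29, 19.4 and 60.5 CPM on zinc (1.5 ± 0.42, adjusted p = 0.227). The highest zinc library was replicate 1 for Gsta1 and Nqo1 and replicate 5 for Gstm3.

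Further genes were called higher. Tmco4 (ENSMUSG00000041143, chromosome 4, 138972888 to 139059171, plus strand) was at 32.4, 31.3 and 30.1 CPM on water and 90.4, 98.4 and 61.8 CPM on zinc (1.42 ± 0.14, adjusted p = 0.00153). Rab29, a small GTPase of lysosomes and the trans-Golgi, was at 8.2, 9.23 and 9.27 CPM on water and 21.3, 22.4 and 15.2 CPM on zinc (1.14 ± 0.14, adjusted p = 0.0013). Coq8a, an atypical kinase of coenzyme Q synthesis, was at 37.7, 33.2 and 35.6 CPM on water and 71.5, 77.2 and 55.5 CPM on zinc (0.94 ± 0.11, adjusted p = 0.0013). In all 3 genes zinc replicate 5 was the lowest zinc library and still above the water libraries. Rab29 and Coq8a were called in every alternative and every fit without 1 library. Coq8a overlaps Cdc42bpa on the other strand. Tmco4 was lost in the 6 libraries alone (adjusted p = 0.0605, and 0.115 with the label). Mfsd10, a transporter of the major facilitator family, rose, with a range of 11.2 to 14 CPM on water and 19.8 to 24.8 CPM on zinc (0.82 ± 0.11, adjusted p = 0.00166). It fell under the fold threshold without water replicate 1 (0.75) or zinc replicate 1 (0.73), and was lost with the replicate block (0.82, adjusted p = 0.0707). Herc3, an E3 ubiquitin ligase, rose, with a range of 10.8 to 14.3 CPM on water and 19.6 to 26.3 CPM on zinc (0.90 ± 0.14, adjusted p = 0.00986) and was lost without water replicate 5 (0.79, adjusted p = 0.0595).

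**Figure D3:**
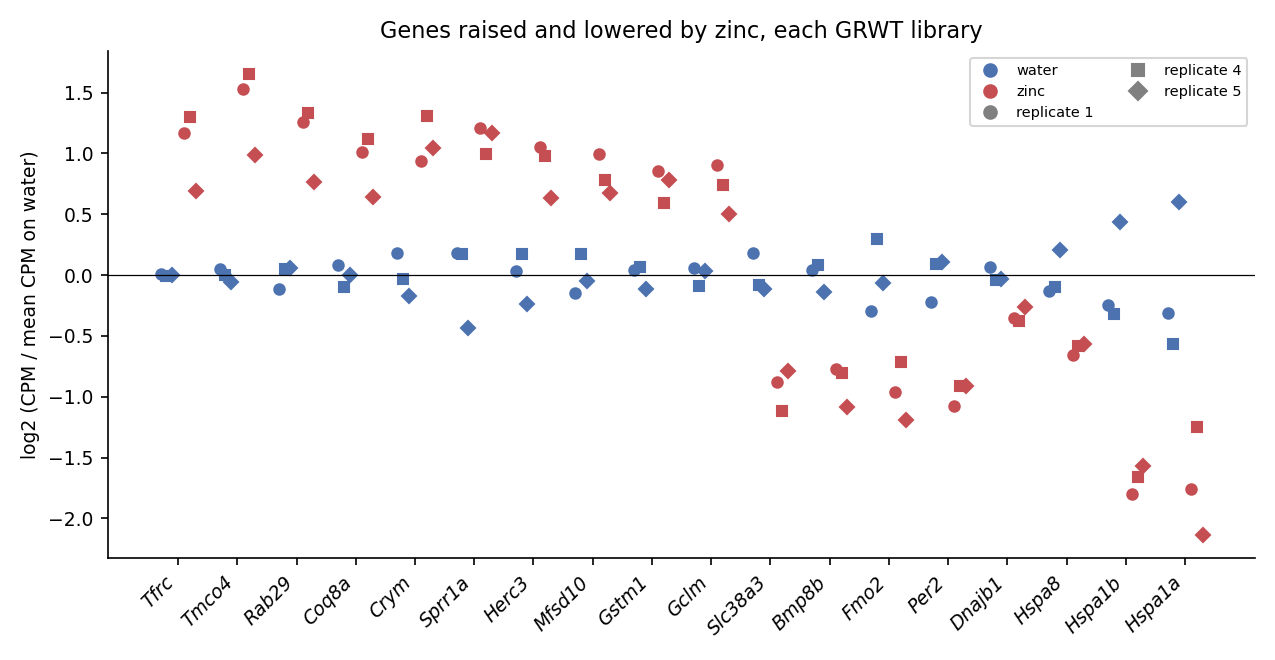
Log2 ratio of each library's normalised CPM to the mean of the 3 water libraries, for called genes with a proper name outside zinc handling, Raet1d and Raet1e left out, and, from the lists, Gstm1, Gclm, Dnajb1 and Hspa8, which passed on the adjusted p alone. Blue is water and red is zinc, with circles, squares and diamonds for replicates 1, 4 and 5; for each gene the red points lie on one side of the blue ones.

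The remaining higher genes were weakly expressed or less stable. Crym, which binds thyroid hormone, rose, with a range of 4.82 to 6.15 CPM on water and 10.4 to 13.4 CPM on zinc (1.10 ± 0.20, adjusted p = 0.0278) and was lost without water replicate 4 or 5 or zinc replicate 4 (adjusted p = 0.134, 0.16 and 0.0799). Sprr1a, a small proline-rich protein of squamous epithelium, rose, with a range of 3.19 to 4.88 CPM on water and 8.6 to 9.95 CPM on zinc (1.12 ± 0.20, adjusted p = 0.0227) and was lost without water replicate 4 or 5 or zinc replicate 1 (adjusted p = 0.0647, 0.141 and 0.0511). Neither of them overlapped between groups. Raet1d and Raet1e encode stress ligands of the lymphocyte receptor NKG2D, and they are related, overlapping genes on chromosome 10 whose reads may be split uncertainly. Raet1e was at 0.283, 0.194 and 0.148 CPM on water and 2.54, 3.3 and 0.9 CPM on zinc (3.39 ± 0.59, adjusted p = 0.0261). Raet1d had 3 counts over the water libraries and 60 over the zinc libraries, a ratio of 19.9 with a 95% counting interval of 6.49 to 99.2 (adjusted p = 0.0457). Raet1e was lost without water replicate 4 or 5 or zinc replicate 1 or 4 (adjusted p = 0.145, 0.16, 0.0785 and 0.0688). Raet1d was lost in the same fits (adjusted p = 0.179, 0.221, 0.0874 and 0.106) and without water replicate 1 (adjusted p = 0.0512). With smooth muscle as covariate the adjusted p was 0.566 for Crym, 0.499 for Sprr1a, 0.361 for Raet1e, 0.168 for Raet1d and 0.374 for Herc3. In the fit of all 22 libraries these 5 were lost too, at an adjusted p of 0.518 for Crym, 0.309 for Sprr1a, 0.0784 for Raet1e, 0.309 for Raet1d and 0.116 for Herc3. The replicate block gave 0.0637 for Crym and 0.0937 for Sprr1a, the tissue label 0.0535 for Sprr1a and 0.0516 for Herc3, and the 6 libraries alone 0.0572 for Raet1e. A pseudogene, Gm5401, was also called higher; with Gm45774 and the 2 non-coding RNAs among the lower genes it makes 4 of the 26 called genes that have no proper name.

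Both genes of the inducible chaperone HSP70 fell. All 10 genes of the heat shock list had a negative log2 change, with a median of -0.36. Of these, 2 were called lower, against 0.0564% of all genes, another 2 passed on the adjusted p without the fold, so 4 passed on it against 0.15%, and 5 in all had an unadjusted p under 0.05, against 5.46% of all genes. Hspa1b (ENSMUSG00000090877, chromosome 17, 34956436 to 34959238, minus strand) and Hspa1a (ENSMUSG00000091971, chromosome 17, 34969190 to 34972156, minus strand) encode the inducible HSP70, and because they are near-identical and reads that map to several places were left out, their counts come from the parts in which they differ. Hspa1b was at 20, 18.9 and 32 CPM on water and 6.77, 7.5 and 7.95 CPM on zinc. Hspa1a was at 3.46, 2.91 and 6.53 CPM on water and 1.27, 1.81 and 0.975 CPM on zinc. The water libraries spread widely, with replicate 5 highest, and the zinc libraries were close together below them. The log2 change was -1.67 ± 0.19 for Hspa1b (adjusted p = 0.0013) and -1.64 ± 0.32 for Hspa1a (adjusted p = 0.0404). Hspa8, the constitutive HSC70, was at 713, 729 and 898 CPM on water and 493, 519.5 and 526 CPM on zinc (-0.60 ± 0.10, adjusted p = 0.0182). Dnajb1, an HSP40 co-chaperone, was at 70.7, 65.5 and 66 CPM on water and 52.9, 51.9 and 56.3 CPM on zinc (-0.33 ± 0.06, adjusted p = 0.041). Hsph1, of the HSP110 family, did not overlap between groups and did not pass (-0.86 ± 0.26, adjusted p = 0.269). The others overlapped, with -0.39 for Hsp90aa1, -0.31 for Hspb1, -0.17 for Bag3, -0.13 for Hspd1 and -0.07 for Hspe1. Hspa1b was called in all 6 fits without 1 library and missed the threshold in the fit of all 22 libraries (-1.68, adjusted p = 0.0507). Hspa1a was lost without water replicate 5 (-1.22, adjusted p = 0.195), zinc replicate 1 (-1.59, adjusted p = 0.107) or zinc replicate 5 (-1.46, adjusted p = 0.104). It was also lost in the 6 libraries alone (adjusted p = 0.178), with the tissue label (0.218) or the replicate block (0.382) added, and in the fit of all 22 libraries (0.259). Hspa8 lost its adjusted p without water replicate 5 or zinc replicate 1, 4 or 5 (adjusted p = 0.0759, 0.0874, 0.0651 and 0.0528), in the fit of all 22 libraries (0.191) and with the replicate block (0.0637). Smooth muscle RNA was also lower on zinc, so a fit with its level as covariate tells muscle and zinc apart poorly. In that fit the adjusted p was 0.09 for Hspa1b (-1.35), 0.823 for Hspa1a (-0.79) and 0.627 for Hspa8 (-0.40).

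Per2 (ENSMUSG00000055866, chromosome 1, 91415982 to 91459324, minus strand), a repressor of the circadian clock, was at 28.4, 35.2 and 35.6 CPM on water and 15.7, 17.5 and 17.6 CPM on zinc. The groups were separate and its mean on zinc was 0.511 of that on water (-0.97 ± 0.15, adjusted p = 0.0182). Of 17 clock genes tested, it was the 1 called, against 0.0564% of all genes called lower, and 3 had an unadjusted p under 0.05, all lower, against 5.46%, with a list median of -0.09. The repressors Cry1 (-0.44 ± 0.16, adjusted p = 0.327) and Cry2 (-0.23 ± 0.09, adjusted p = 0.372) did not pass. The hour of sampling is not in the labels. Per2 was called in 1 of 6 fits without 1 library, and its adjusted p without water replicate 4 or 5 or zinc replicate 1, 4 or 5 was 0.0921, 0.104, 0.0774, 0.0651 and 0.0516. With smooth muscle as covariate it was 0.503 (-0.63), and in the fit of all 22 libraries 0.063.

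Other lower genes with a proper name were Fmo2, Slc38a3 and Bmp8b. Fmo2, a flavin-containing monooxygenase, was at 26, 39.3 and 30.6 CPM on water and 16.4, 19.5 and 14 CPM on zinc (-0.94 ± 0.17, adjusted p = 0.0404). Slc38a3, a glutamine transporter, was at 5.72, 4.78 and 4.67 CPM on water and 2.75, 2.33 and 2.92 CPM on zinc (-0.92 ± 0.16, adjusted p = 0.0186). Bmp8b, a secreted ligand of the BMP family that overlaps Ppie on the other strand, was at 8.84, 9.11 and 7.79 CPM on water and 5.01, 4.92 and 4.05 CPM on zinc (-0.88 ± 0.14, adjusted p = 0.0105). None of them overlapped between groups. Fmo2 was lost without water replicate 4 or 5 or zinc replicate 1 or 5 (adjusted p = 0.085, 0.146, 0.125 and 0.0918). Slc38a3 was lost without water replicate 4 or 5 or zinc replicate 4 (adjusted p = 0.0647, 0.0595 and 0.0734). Bmp8b was lost without water replicate 4 (adjusted p = 0.0647) and fell under the fold threshold without zinc replicate 5 (-0.79). The non-coding RNA 4732465J04Rik fell too, with a range of 9.49 to 13.6 CPM on water and 3.9 to 5.88 CPM on zinc (-1.20 ± 0.18, adjusted p = 0.00611), and was lost with the replicate block (-1.21, adjusted p = 0.0505) and with smooth muscle as covariate (-0.95, adjusted p = 0.409). With that covariate the adjusted p was 0.59 for Fmo2, 0.368 for Slc38a3 and 0.409 for Bmp8b. Fmo2 was at 3.37 to 6.83 CPM in the 4 muscle-poor GRWT libraries, below each of the 6 muscle-rich ones. Other fits ended these calls too. In the 6 libraries alone the adjusted p was 0.178 for Fmo2, 0.122 for Slc38a3 and 0.0572 for Bmp8b. With the tissue label added it was 0.156, 0.132 and 0.0814, and in the fit of all 22 libraries 0.322, 0.191 and 0.676. With the replicate block it was 0.262 for Slc38a3 and 0.117 for Bmp8b, and without a filter 0.0608 for Fmo2.

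The summed smooth muscle level of each zinc library was below that of each water library. All 10 muscle genes had a negative log2 change, with a median of -0.30, 9 had an unadjusted p under 0.05, against 5.46% of all genes lower, and 0 passed the adjusted p. The summed level on zinc was 0.795 of that on water. Examples are the myosin kinase Mylk (-0.26 ± 0.07, adjusted p = 0.133), the actin Acta2 (-0.30 ± 0.10, adjusted p = 0.283), the myosin light chain Myl9 (-0.29 ± 0.10, adjusted p = 0.288) and desmin Des (-0.40 ± 0.15, adjusted p = 0.339). Since the libraries were chosen by Myh11, this list is not independent of the choice. The 6 fibroblast genes had negative log2 changes as well, with a median of -0.34 and 3 at an unadjusted p under 0.05, against the same 5.46%, among them the collagens Col3a1 (-0.29 ± 0.12) and Col1a1 (-0.40 ± 0.17) and decorin Dcn (-0.41 ± 0.14), all with overlapping groups. Fewer cells of a type and less RNA per cell cannot be told apart in such bulk libraries. With the summed muscle level as covariate, chosen after seeing the data, 9 genes were called higher and 1 lower, and 9 of these 10 were among the 26. As that level separates the zinc from the water libraries, this fit tells muscle and zinc apart poorly. The part of muscle content in the zinc response was not tested further.

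Of the immune lists, 2 genes passed on the adjusted p, both lower and both of the type 2 interferon list, against 0.15% of all genes lower. In the response to type 2 interferon, the cytokine of T and NK cells, 8 of 36 genes had an unadjusted p under 0.05 in the lower direction and 0 in the higher, against 5.46% and 6.06% of all genes, and the median was -0.14. The GTPase Ifi47 was at 58.7, 57.5 and 61 CPM on water and 42.7, 48.4 and 37.4 CPM on zinc (-0.46 ± 0.09, adjusted p = 0.0299), and the transcription factor Batf2 was at 31.4, 33 and 36.3 CPM on water and 24, 20.1 and 23.3 CPM on zinc (-0.58 ± 0.11, adjusted p = 0.041). Both passed on the adjusted p and stayed under the fold threshold. Irf1 (-0.39 ± 0.08, adjusted p = 0.0588) and the tryptophan-degrading enzyme Ido1 (-0.46 ± 0.13, adjusted p = 0.189) did not overlap between groups and did not pass. For the response to type 1 interferon, 5 of 40 genes were lower at an unadjusted p under 0.05, with a median of -0.04, led by Ifit1bl1 (-0.72 ± 0.13, adjusted p = 0.0524) and Stat2 (-0.26 ± 0.07, adjusted p = 0.148). MHC class II genes, which present antigen, had 6 of 10 lower and 1 higher at an unadjusted p under 0.05 and a median of -0.50. H2-Aa was at 344, 644 and 464 CPM on water and 344, 367 and 249 CPM on zinc (-0.60 ± 0.21, adjusted p = 0.332), and H2-DMa alone of the list did not overlap in the lower direction (-0.50 ± 0.11, adjusted p = 0.105). Their median was -0.29 without water replicate 4, the library with the highest H2-Aa, and -0.26 with smooth muscle as covariate. H2-Ob, named here after its values were seen, was high with the B cell genes in zinc replicate 1, at 21 CPM there and 2.74 to 3.36 CPM elsewhere. MHC class I processing had 0 of 20 genes at an unadjusted p under 0.05 in either direction, with a median of 0.02.

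**Figure D4:**
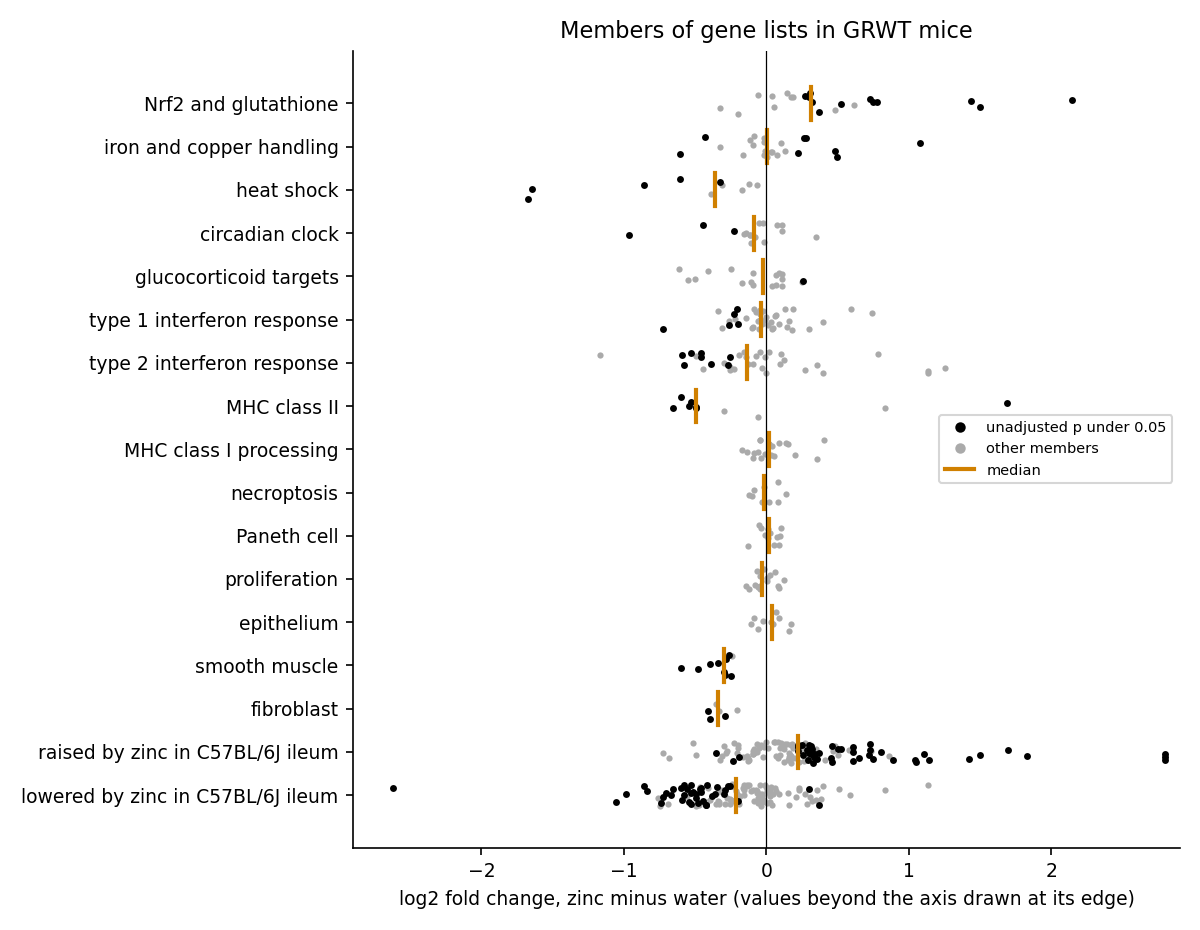
Log2 fold change (zinc minus water) of the tested members of 17 gene lists, 1 point per gene, black where the unadjusted p was under 0.05, with the list median in orange. Values beyond the axis are drawn at its edge. The heat shock, MHC class II, smooth muscle and fibroblast medians lie left of 0 and the glutathione median lies right of it, at 0.31.

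Genes tied to the study's other questions did not pass in these libraries. Necroptosis, a form of inflammatory cell death, had 0 of 9 genes at an unadjusted p under 0.05 and a median of -0.02. Its effector Mlkl was at 13.3, 14.1 and 13.9 CPM on water and 14.2, 11.9 and 11.9 CPM on zinc (-0.12 ± 0.10, adjusted p = 0.648), the kinase Ripk3 had a log2 change of -0.02 ± 0.11 (adjusted p = 0.969) and the sensor Zbp1 of -0.03 ± 0.21 (adjusted p = 0.972). Nr3c1, the gene of the glucocorticoid receptor, was at 296, 296 and 312 CPM on water and 281, 342 and 312 CPM on zinc (0.05 ± 0.07, adjusted p = 0.826). Of 18 glucocorticoid target genes, 1 had an unadjusted p under 0.05, the cell cycle inhibitor Cdkn1a (0.26 ± 0.06, adjusted p = 0.12), against 6.06% of all genes higher and 5.46% lower, and the median was -0.03. On zinc 1 of the 18 lay higher without overlap and 4 lower, against 7.81% and 7.04% of all genes. Fkbp5, which feeds back on the receptor, had a log2 change of -0.25 ± 0.12 (adjusted p = 0.457), Errfi1 of 0.25 ± 0.12 and Zbtb16 of -0.61 ± 0.31. Agtpbp1, a carboxypeptidase that trims tubulin, was at 15.5, 13.8 and 13.6 CPM on water and 35.9, 38.9 and 18.2 CPM on zinc. Its groups did not overlap, but zinc replicate 5 lay close to the water libraries and the change of 1.12 ± 0.24 did not pass (adjusted p = 0.109). It passed with DESeq2 (1.11, adjusted p = 8.88e-05) and without zinc replicate 5 (1.39, adjusted p = 1.27e-05).

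The same question had been asked by the study in ileum of C57BL/6J mice, a separate experiment, and its gene lists were followed here by name. Of the 136 genes that zinc raised there, 123 were tested, 7 were called higher here and 0 lower, against 0.107% and 0.0564% of all genes. The 7 were Mt1, Mt2, Slc30a2, Tmco4, Rab29, Crym and Raet1e. At an unadjusted p under 0.05, 43 were higher and 3 lower, against 6.06% and 5.46% of all genes, 37 lay higher without overlap against 7.81% of all genes, and the median log2 change was 0.22. Beside Gstm1 and Gclm, the mitochondrial protein gene Fam210b (0.72 ± 0.09, adjusted p = 0.00166) and Fam189a2 (0.60 ± 0.11, adjusted p = 0.028) passed on the adjusted p alone. Of the 139 genes that zinc lowered there, 129 were tested and 1 was called lower here, Slc39a4. At an unadjusted p under 0.05, 38 were lower and 2 higher, 25 lay lower without overlap against 7.04% of all genes, and the median was -0.21. Without water replicate 1 the medians were 0.35 and -0.31.

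GRDim mice with muscle-rich libraries, 3 on each water, were in the same fit. Their water libraries are all labelled IEC and their zinc libraries all ileum, so zinc and the tissue label cannot be told apart in them. In GRDim mice 123 genes were called higher (0.771%) and 89 lower (0.558%). Of the 17 genes called higher in GRWT, 8 were called higher in GRDim, and of the 9 called lower, 1 was, Slc39a4; 22 of the 26 had the same sign. Mt1 changed by 4.37 (adjusted p = 6.35e-04) in GRDim on the log2 scale, Mt2 by 4.85 (adjusted p = 0.00132), Slc30a2 by 1.77 (adjusted p = 6.35e-04) and Slc39a4 by -1.62 (adjusted p = 0.0011). The differences in the zinc effect, GRWT minus GRDim, were 1.16 ± 0.45 (adjusted p = 0.271) for Mt1, 1.65 ± 0.70 (adjusted p = 0.314) for Mt2, 0.05 ± 0.22 (adjusted p = 0.934) for Slc30a2 and -1.003 ± 0.24 (adjusted p = 0.109) for Slc39a4, and none of these passed. A p that misses the threshold does not show that the genotypes respond alike.

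**Figure D5:**
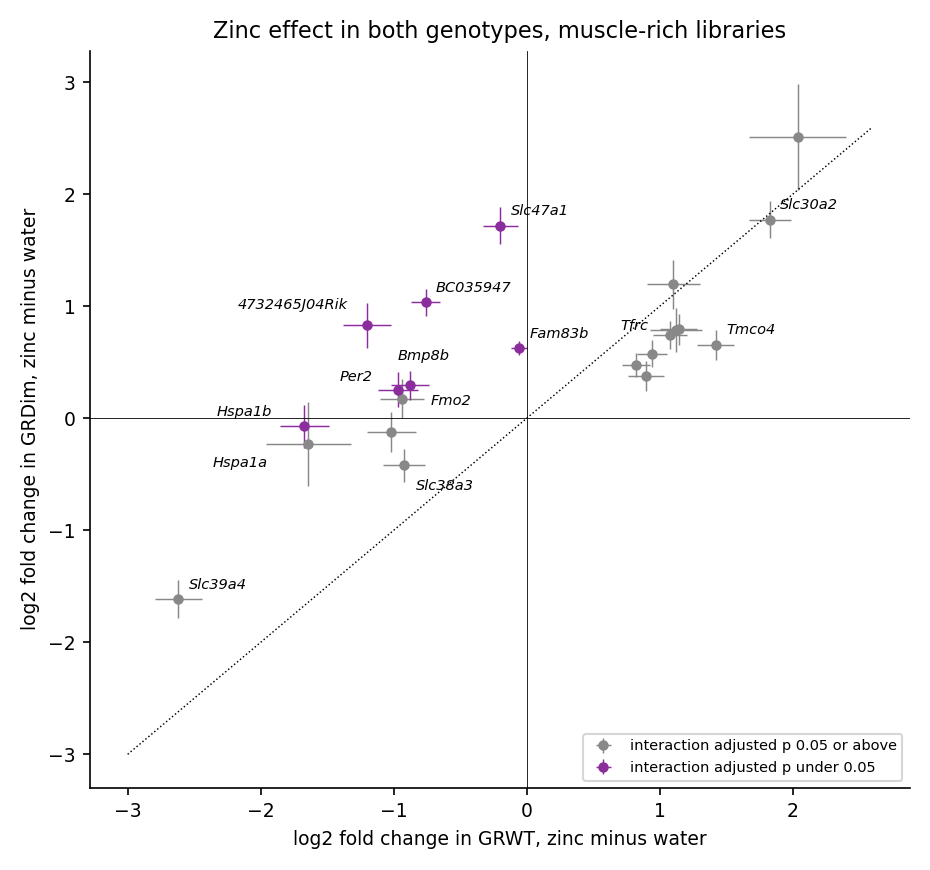
Log2 fold change on zinc in GRWT (horizontal axis) and in GRDim mice (vertical axis) with standard errors, for called genes with a GRWT change within 3 in either direction and for 3 further genes with a low interaction p. Purple points had an adjusted p under 0.05 for the difference between genotypes, and the dotted line marks equal change. Slc30a2 lies close to that line, while Hspa1b, Per2 and Bmp8b lie left of it near 0 on the GRDim axis.

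The zinc effect differed between genotypes for 42 genes at an adjusted p under 0.05 (0.263%), with the label of the GRDim libraries as confounded as above, of which 36 were lower in GRWT than in GRDim (0.226%) and 6 higher (0.0376%). Of the 42, 37 passed on the adjusted p in GRDim, where 7.7% of all genes did, and 7 in GRWT, where 0.383% did, and 31 had opposite signs. The difference is made of both effects in the same libraries. These counts therefore follow in part from how the 42 were chosen and are not a separate result. Among the genes called in GRWT, 4 differed, all called lower: Hspa1b, Per2, Bmp8b and 4732465J04Rik. Hspa1b changed by -1.67 in GRWT and -0.07 in GRDim, a difference of -1.60 ± 0.27 (adjusted p = 0.0289). Its mean in GRDim was 8.88 ± 0.85 CPM on water and 8.44 ± 1.25 CPM on zinc (SD, n = 3), beside 23.7 ± 7.28 and 7.41 ± 0.593 CPM in GRWT. Per2 changed by -0.97 in GRWT and 0.26 in GRDim, a difference of -1.22 ± 0.22 (adjusted p = 0.045). Its mean in GRDim was 16.5 ± 2.25 CPM on water and 19.7 ± 4.35 CPM on zinc. Bmp8b changed by -0.88 in GRWT and 0.29 in GRDim, a difference of -1.17 ± 0.19 (adjusted p = 0.0261). Hspa1a had a difference of -1.41 ± 0.50 (adjusted p = 0.202), which did not pass, and among the lists Dnajb1, with a difference of -0.54 ± 0.09 (adjusted p = 0.0277), and Cry2, with -0.72 ± 0.14 (adjusted p = 0.045), did. The genes with the smallest interaction p included BC035947, Slc47a1, Fam83b and 4732465J04Rik. BC035947, which overlaps Mogat1 on the other strand, changed by -0.76 in GRWT and 1.04 in GRDim. Slc47a1, an exporter of organic cations, changed by -0.20 in GRWT and 1.72 in GRDim. Fam83b changed by -0.06 in GRWT and 0.62 in GRDim, and 4732465J04Rik by -1.20 in GRWT and 0.83 in GRDim. In the fit of all 22 libraries 1 gene differed, 4732465J04Rik (adjusted p = 0.0276), and the adjusted p was 0.598 for BC035947 and 0.732 for Slc47a1 and Fam83b. Without zinc replicate 1 there were 6 genes that differ between genotypes, without water replicate 5 there were 21, without water replicate 4 there were 26, and without zinc replicate 4 or 5 there were 74 and 64.

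The 4 muscle-poor GRWT libraries, 2 on each water and all labelled ileum, hold little Myh11 (3.22 to 20.5 CPM). Zinc replicate 3 stood apart among them, with 11.2% of its counts in its 10 most abundant genes against 7.65% to 8% in the other 3. With all 4, 1 gene was called higher (0.00627%) and 2 lower (0.0125%), and without that library 12 were called higher (0.0727%) and 16 lower (0.0969%). Without it the lone zinc library is assumed to vary like the other groups. The 3 calls with all 4 were Slc30a2, Slc39a4 and Slc38a3. Without that library Slc30a2 changed by 2.32 (adjusted p = 1.17e-05), Slc39a4 by -2.26 (adjusted p = 0.0442) and Slc38a3 by -2.27 (adjusted p = 0.0196), all called, beside 2.96 (adjusted p = 0.0411), -2.49 (adjusted p = 0.0411) and -2.45 (adjusted p = 0.0411) with all 4. The change of Slc38a3 in the muscle-rich libraries was -0.92, and the difference between both effects did not pass (adjusted p = 0.63). Without that library Mt1 changed by 3.84 (adjusted p = 0.0692) and Mt2 by 4.19 (adjusted p = 0.0962), which did not pass. Without that library 15 of the 17 genes called higher and 7 of the 9 called lower had the same sign, the exceptions being Tfrc at -0.31 (adjusted p = 0.662), Sprr1a at -0.40 (adjusted p = 0.698), Hspa1b at 0.44 (adjusted p = 0.655) and Hspa1a at 0.57 (adjusted p = 0.762). The zinc effect differed between muscle-rich and muscle-poor libraries for 0 genes by edgeR, with 1188 at an unadjusted p under 0.05 (7.45%), and for 26 genes by DESeq2. Without zinc replicate 2, which leaves zinc replicate 3 alone on its side, the edgeR count was 6471.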

How the data were processed

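RNA of mouse small intestine was sequenced with a stranded TruSeq kit as single-end reads. Per the study's methods, the authors mapped reads to mm10 with HISAT 2.0.4 and counted them per gene with featureCounts without multimapping reads; the annotation release and strand setting are not given in the sources used here. The deposited table holds raw counts of 54838 genes, of which 54809 were matched to GENCODE vM21 for names and coordinates; 2 columns that share a name were used by group only, and only in the fit of all 22 libraries. The members and gene lists were chosen with earlier results of these data known. Genes were filtered with filterByExpr and scaled by TMM, and edgeR 4.0.16 (limma 3.58.1, R 4.3.3) quasi-likelihood tests with Benjamini-Hochberg adjustment were fitted over 12 muscle-rich libraries (4 groups of 3); CPM are TMM-scaled, except the Myh11 levels of the choice of libraries and the floors, which use the column total. The muscle-poor comparison used the 10 GRWT libraries. Tested on simulated counts of the main comparison over 15947 genes, the fit found 62.7% of 1.5-fold, 76.1% of 2-fold and 90.9% of 4-fold changes. It gave 6 false calls. Changes were found here on the adjusted p alone, without the fold threshold, and a 1.5-fold change lies under that threshold. These are therefore not shares of genes that would be called. The share found in the real libraries was not tested. Named were called genes with a proper name and at least 1 CPM in a group, up to 20 per direction, up to 4 further genes per list with the smallest p, all tested metallothioneins and zinc transporters, and the 5 smallest interaction p; others are marked where they appear, and 3 genes that met the rule are not reported here. The 9 alternatives were DESeq2 1.42.0, its size factors, no filter, a filter of over 1 CPM in 3 libraries, the 6 libraries alone, these with tissue label or replicate block, all 22 libraries, and a smooth muscle covariate chosen after seeing the data.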

Additional observations from a re-analysis of the deposited data

Results flagged for a closer look

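The zinc effect differed between GRWT and GRDim mice for 42 genes by the interaction test of edgeR (adjusted p under 0.05), and these were marked because the difference itself was tested. In each of the following the value is the log2 zinc effect in GRWT minus that in GRDim, from 3 libraries per group. It was -1.80 for BC035947, -1.92 for Slc47a1, -0.68 for Fam83b and -2.03 for 4732465J04Rik, which are among the genes with the smallest p; in the fit of all 22 libraries only 4732465J04Rik of these passed (adjusted p = 0.0276, against 0.598, 0.732 and 0.732). Among genes called in GRWT it was -1.60 for Hspa1b, -1.17 for Bmp8b and -1.22 for Per2. Among members of the gene lists it was -0.54 for Dnajb1, -0.72 for Cry2 and 0.79 for Tac1, the gene of the neuropeptide substance P. In the fit of all 22 libraries none of these 6 passed either. In GRDim the tissue label changes with zinc, so a difference between genotypes and one between labels cannot be told apart. In water, Hspa1b was already lower in GRDim (8.88 ± 0.85 CPM, SD, n = 3) than in GRWT (23.7 ± 7.28 CPM), a contrast that was not tested.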

How the results depend on the processing

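Of the 26 genes called, 21 had an adjusted p with DESeq2 and all 21 were called by it, 26 were called with its size factors, 24 without a filter, 26 with the stricter filter, 15 in the 6 libraries alone, 12 with the tissue label added, 12 in the fit of all 22 libraries and 9 with the smooth muscle covariate, which was chosen after seeing the data. None of them changed sign in these fits or in those without 1 library. The replicate numbers did not pair the libraries (correlations of their deviations -0.083, 0.063 and -0.108), and with the replicate block 15 of the 26 genes were called. DESeq2 called 14 genes lower in GRWT, gave 301 genes that differ between genotypes, called 368 higher and 76 lower in the muscle-poor libraries, and gave 26 that differ with muscle content. Without a filter 16 genes were called lower and 269 differed between genotypes. In the fit of all 22 libraries 10 genes were called higher and 2 lower in GRWT, 19 and 11 in GRDim, 753 and 203 in the muscle-poor libraries, 1 differed between genotypes and 3 with muscle content. With the smooth muscle covariate 9 genes were called higher and 1 lower, 64 differed between genotypes, the heat shock median was -0.25, the smooth muscle median turned to 0.019, and Zbp1 and Ripk3, not called, turned to 0.16 and 0.057. The fits without 1 library gave 8 to 28 genes higher and 4 to 17 lower, 6 to 74 that differ between genotypes, heat shock medians of -0.45 to -0.29, and medians of 0.16 to 0.35 and -0.31 to -0.17 for the lists raised and lowered in C57BL/6J. For the muscle-poor libraries they gave 0 to 2288 genes higher, 0 to 2225 lower and 0 to 6471 that differ with muscle content. Uncalled genes near 0 changed sign: Zbp1 ranged from -0.24 to 0.19, turning without water replicate 4 or zinc replicate 5, Ripk3 from -0.072 to 0.064, turning without water replicate 4 or zinc replicate 4, and Nr3c1 from -0.022 to 0.12, turning without zinc replicate 4. The cause of these shifts was not tested. With 13415583 to 15620744 counts per library, 1 count on water for Mt4 and 3 each for Raet1d and Gm45774 leave their folds loosely bounded.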

Other observations

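Below the fold threshold, 20 genes passed on the adjusted p in the higher direction and 15 in the lower. The following were named after their values were seen. Selenow, the gene of selenoprotein W, was at 80.3, 80.7 and 79.3 CPM on water and 108, 128 and 125 CPM on zinc, with water libraries that nearly coincide (0.59 ± 0.07, adjusted p = 0.00128). Gsto1, an omega-class glutathione transferase, was at 308, 262 and 266 CPM on water and 391, 453 and 449 CPM on zinc (0.63 ± 0.08, adjusted p = 0.00153), and the microsomal transferase Mgst1 (0.31 ± 0.06, adjusted p = 0.0279) rose as well. Pdk1, a kinase that restrains pyruvate entry into mitochondria, rose too (0.43 ± 0.06, adjusted p = 0.00536). Dnaja1, an HSP40 co-chaperone, was at 236, 221 and 273 CPM on water and 174, 178 and 171 CPM on zinc, and fell (-0.48 ± 0.07, adjusted p = 0.00604).

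No gene of the lists described next passed on the adjusted p. Paneth cell, proliferation and general epithelial lists had 0 genes at an unadjusted p under 0.05 of 12, 16 and 10 tested, with medians of 0.02, -0.03 and 0.04. Of 14 enteroendocrine genes, 3 were higher at an unadjusted p under 0.05, against 6.06% of all genes, and 5 lay higher without overlap, against 7.81%, among them the ghrelin gene Ghrl (1.41 ± 0.50, adjusted p = 0.291) and the peptide YY gene Pyy (0.21 ± 0.08, adjusted p = 0.341), and none passed. Of 11 genes of the proximal small intestine, 3 were higher at an unadjusted p under 0.05, namely the carboxylesterase Ces1g (0.73 ± 0.18, adjusted p = 0.109), the aldo-keto reductase Akr1c19 (0.89 ± 0.25, adjusted p = 0.231) and the transcription factor Gata4 (0.61 ± 0.23, adjusted p = 0.329). Of 19 cytochrome P450 genes, 4 were higher and 1 lower at that level, led by Cyp4f16 (0.60 ± 0.12, adjusted p = 0.0654) and Cyp3a13 (0.27 ± 0.07, adjusted p = 0.109). Fgf15, the ileal hormone that restrains bile acid synthesis, was at 22.9, 41.3 and 51.2 CPM on water and 80.5, 101 and 106 CPM on zinc, which did not pass (1.32 ± 0.86, adjusted p = 0.597). Of 16 microbe-responsive epithelial genes, 3 were lower at an unadjusted p under 0.05, against 5.46% of all genes, among them the lectin Reg3g (-0.70 ± 0.21, adjusted p = 0.242), at 1545, 1521 and 1952 CPM on water and 935, 819 and 1330.0 CPM on zinc.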
